A study of Homo sapiens with 6 samples.

Results

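Aldehyde dehydrogenases (ALDH) oxidise aldehydes to carboxylic acids with NAD or NADP as the electron acceptor. They clear reactive aldehydes that arise from alcohol, membrane lipids and amino acids, and some of them make signalling or biosynthetic products, such as retinoic acid from retinaldehyde. In the liver ALDH2 is known for removing acetaldehyde after alcohol intake, and ALDH1A1 and ALDH1A3 are widely used as markers of stem-like tumour cells. The genes described here were ALDH1A1, ALDH1A2, ALDH1A3, ALDH1B1, ALDH1L1, ALDH2, ALDH3A1, ALDH3A2, ALDH3B1 and ALDH6A1, found by gene name in the deposited table. All 10 were among the 35856 genes of the table, and 9 other ALDH genes complete the human family of 19.

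The comparison had 3 RNA libraries of HCCLM3 cells that received a plasmid carrying LINC00862, a long non-coding RNA, and 3 of HCCLM3 cells labelled NC. The treatment label names an empty vector as the other plasmid without tying it to single libraries, and NC is taken to be that control. By its label HCCLM3, an established line from a human hepatocellular carcinoma, is the source of both groups. The labels do not say whether the libraries of a group came from separate cultures, so p-values measure the spread between these libraries, which may be technical. The question of the comparison was which RNAs change when LINC00862 is overexpressed.

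The total counts lay between 58241123 and 68229070, and LINC00862 itself had 11, 21 and 6 counts in NC and 145, 121 and 76 counts in the libraries labelled LINC00862. Counts were compared by edgeR's quasi-likelihood test with TMM scaling, and p-values were adjusted by the Benjamini-Hochberg method over the 20741 genes tested. FPKM, as computed by the authors, is the number of fragments scaled by the length of the gene and the mapped total of the library. The label hepatoma was checked against 12 hepatocyte markers, of which 11 were in the table. Their summed FPKM lay between 4.40 and 4.67 in NC and between 809 and 924 in LINC00862, and most of it came from FGB and CPS1. TTR had 0 counts in each NC library and ALB had 0, 0 and 7 counts there, so these defining markers were at or near 0 in NC. CYP3A4 was at or near 0 in both groups, with 0 counts in 5 of the libraries and 5 counts in LINC00862 library 2. Of the 9 hepatocyte markers tested, 7 were higher and 2 were lower in LINC00862. Among the higher ones, ALB, TTR, APOB and HNF4A were still low in LINC00862, at means of 1.51, 0.464, 0.144 and 0.0447 FPKM. The lower ones were AFP and SERPINA1. AFP had only 14, 24 and 30 counts in NC, and 0 counts in each LINC00862 library. SERPINA1 had 363, 393 and 501 counts in NC and 29, 48 and 24 counts in LINC00862. Mesenchymal markers had a summed FPKM of 586 to 652 in NC and 17.6 to 21.1 in LINC00862, with 5 of 10 lower and 2 higher, and epithelial markers had 264 to 384 in NC and 551 to 643 in LINC00862, with 6 of 9 higher and 1 lower. Endothelial and blood markers had 734 to 821 in NC and 520 to 650 in LINC00862, nearly all from HBB, and 2 of 8 were higher. Most of the hepatocyte, mesenchymal and epithelial markers tested differed between the groups, as most ALDH genes below did. Of the 8 endothelial and blood markers, 6 did not pass. The part of these markers in the ALDH differences was not tested. Whether the groups differ through LINC00862 or because their cells were unlike to begin with cannot be told apart, and neither can fewer cells of a type and less RNA per cell.

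Of the 10 ALDH genes, 8 passed an adjusted p of 0.05, 5 of them higher and 3 lower in LINC00862. Among all genes tested, 64.2% passed, 34.4% higher and 29.8% lower, so a call is the common outcome in this comparison and the count of 8 is a description of the family. The 5 higher genes were ALDH1A1, ALDH1L1, ALDH3A2, ALDH6A1 and ALDH3B1, and the 3 lower genes were ALDH1A3, ALDH3A1 and ALDH2. ALDH1A2 and ALDH1B1 did not pass. For 9 of the 10 genes the FPKM values of NC and LINC00862 were fully separate, which held for 71.1% of all genes tested. In each of these 9 the exact two-sided permutation test returned p = 0.1, and groups of 3 libraries can give no smaller p. Of the 10 genes, 7 both passed and differed by at least 2-fold, as did 49.8% of all genes tested. The median log2 fold change was 0.68 over the 10 genes and 0.11 over all genes tested, while the median absolute log2 fold change was 1.71 and 1.16.

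**Figure D1:**
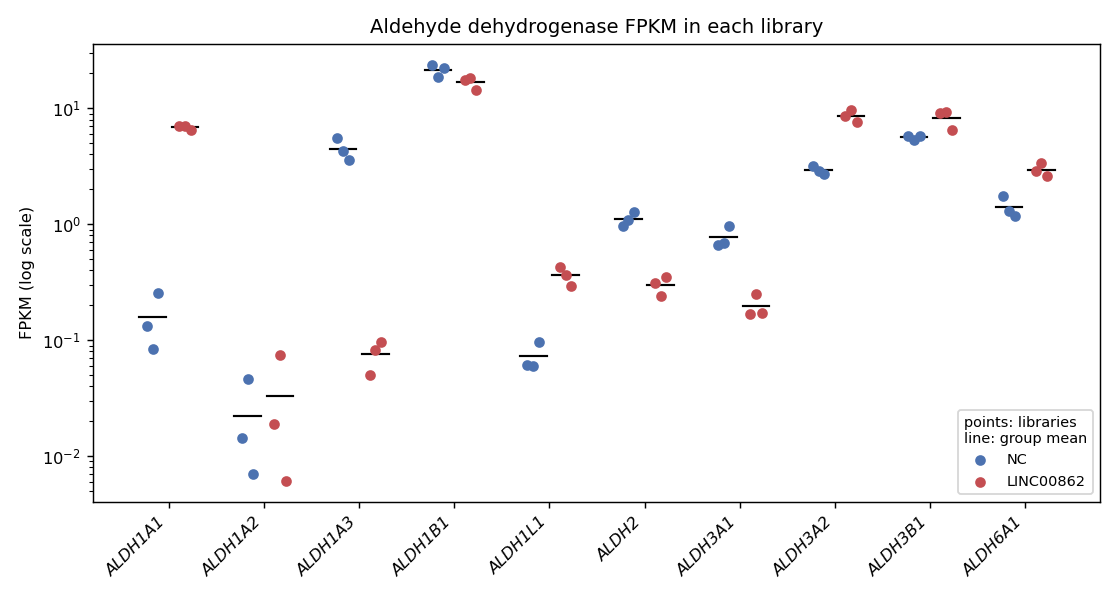
FPKM (log scale) of the 10 ALDH genes in each of the 3 NC libraries (blue) and 3 LINC00862 libraries (red), with a line at each group mean. ALDH1A1 and ALDH1A3 differ between the groups in opposite directions, ALDH1B1 is the highest gene in both, and ALDH1A2 is the only gene whose groups overlap.

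The largest differences, in opposite directions, were those of ALDH1A1 and ALDH1A3, a pair of cytosolic enzymes that oxidise retinaldehyde to retinoic acid. ALDH1A1 (ENSG00000165092) spans bases 72900671 to 73080442 of chromosome 9 (minus strand, hg38 as in the table). It had 25, 16 and 50 counts in NC and 1522, 1325 and 1236 counts in LINC00862. Each LINC00862 library was far above each NC library. Its level was 0.157 ± 0.0879 FPKM (SD, n = 3) in NC and 6.85 ± 0.318 FPKM (SD, n = 3) in LINC00862. By edgeR ALDH1A1 had a log2 fold change of 5.57, with a standard error (SE) of 0.39 and an adjusted p = 3.26e-06, a 47.5-fold rise. NC library 3 held the highest of the low NC values, and without it the rise was 72.3-fold (adjusted p = 6.71e-07, edgeR).

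ALDH1A3 (ENSG00000184254) spans bases 100877714 to 100916626 of chromosome 15 (plus strand). It had 1954, 1487 and 1273 counts in NC and 21, 30 and 35 counts in LINC00862, so every LINC00862 library was far below every NC library. Its level was 4.45 ± 0.990 FPKM (SD, n = 3) in NC and 0.0766 ± 0.0243 FPKM (SD, n = 3) in LINC00862. This made a log2 fold change of -5.65 with an SE of 0.31 (adjusted p = 7.21e-07, edgeR), a 50.0-fold fall. An antisense gene that overlaps ALDH1A3, AC015712 (ENSG00000259583), had 74, 56 and 73 counts in NC and 11, 5 and 0 counts in LINC00862. Whether counting used the strand is not stated, so reads of such a pair may not be separated.

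ALDH1A2 (ENSG00000128918), the retinaldehyde dehydrogenase best known from embryonic development, spans bases 57953424 to 58497866 of chromosome 15 (minus strand). It had 9, 26 and 4 counts in NC and 13, 41 and 4 counts in LINC00862. The groups overlapped, and the log2 fold change of 0.63, with an SE of 0.93 (adjusted p = 0.575, edgeR), was smaller than its error. A difference was not detectable at these counts. AQP9 and LIPC overlap its span on the opposite strand, and AQP9 had 4 to 19 counts in NC and 10 to 33 in LINC00862.

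The summed FPKM of the 3 retinaldehyde dehydrogenases was 5.67, 4.39 and 3.83 in NC and 7.08, 7.21 and 6.59 in LINC00862. The sum thus differed far less between the groups than either gene alone. In NC, ALDH1A3 held 95.9% ± 2.35 (SD, n = 3) of it and ALDH1A1 held 3.64% ± 2.62. In LINC00862, ALDH1A1 held 98.4% ± 0.604 (SD, n = 3) and ALDH1A3 held 1.11% ± 0.387.

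**Figure D2:**
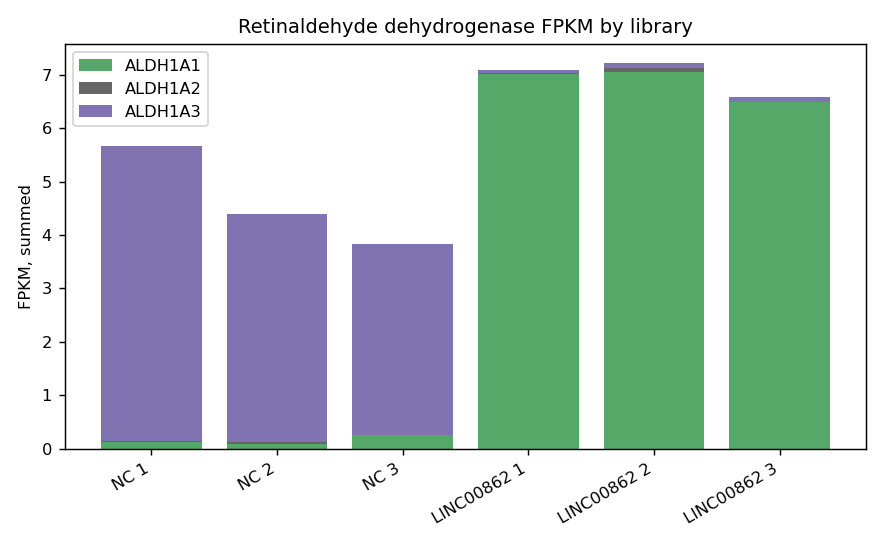
FPKM of ALDH1A1, ALDH1A2 and ALDH1A3 stacked for each of the 6 libraries. The bars consist almost wholly of ALDH1A3 in the 3 NC libraries and of ALDH1A1 in the 3 LINC00862 libraries, with sums of 3.83 to 5.67 and 6.59 to 7.21.

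The stretches of 250 bases before the RefSeq starts of these opposite movers (GRCh38.p14) are shown because they differ widely in base composition. Both stretches lie inside the gene spans given above, which begin further upstream than these RefSeq starts. Capitals mark CCAAT boxes (CCAAT) and GC boxes (GGGCGG), read on both strands, so that they also appear as ATTGG and CCGCCC.
ALDH1A1 at chr9:72953054-72953303, minus strand: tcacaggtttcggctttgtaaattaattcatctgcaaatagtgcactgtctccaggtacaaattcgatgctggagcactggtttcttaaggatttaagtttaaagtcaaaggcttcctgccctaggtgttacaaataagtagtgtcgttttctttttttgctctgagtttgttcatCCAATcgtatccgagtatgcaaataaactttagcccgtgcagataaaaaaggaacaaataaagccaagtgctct
ALDH1A3 at chr15:100879581-100879830, plus strand: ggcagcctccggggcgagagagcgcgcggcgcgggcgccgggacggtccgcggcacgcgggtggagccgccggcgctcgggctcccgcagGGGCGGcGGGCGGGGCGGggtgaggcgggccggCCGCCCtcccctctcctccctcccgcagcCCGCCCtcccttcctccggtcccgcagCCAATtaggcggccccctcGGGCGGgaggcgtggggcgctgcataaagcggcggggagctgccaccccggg
The ALDH1A1 stretch had 38.4% G or C and 6 CpG, and that of ALDH1A3 had 82.4% and 38 CpG, against medians of 58% and 11 CpG over 35116 promoter windows. Each held 1 CCAAT box, which begins 74 bases before the start in ALDH1A1 and 71 bases before it in ALDH1A3, and 32.0% of the windows hold one. ALDH1A3 held 6 GC boxes, of which a pair overlap, and ALDH1A1 held 0, with 42.6% of the windows holding at least 1. No TATA box (TATAAA, in 10.7% of the windows) and no E-box of the form CACCTG (in 17.5%) was found in either stretch. The same held for the antioxidant response core (TGACNNNGC, in 10.9%) and the AP-1 site (TGANTCA, in 6.57%). These matches describe the letters and not binding.

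Among the mitochondrial enzymes, ALDH2 was lower, ALDH6A1 was higher and ALDH1B1 did not pass the test. ALDH2 (ENSG00000111275; chromosome 12, plus strand, 111766887 to 111817532), the main acetaldehyde dehydrogenase, had 0.969, 1.08 and 1.28 FPKM in NC and 0.314, 0.240 and 0.348 FPKM in LINC00862. Each LINC00862 library was below each NC library. On the log2 scale ALDH2 differed by -1.70 with an SE of 0.26 (adjusted p = 0.00043, edgeR), a 3.25-fold fall from a level that was already low in NC.

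ALDH6A1 (ENSG00000119711; chromosome 14, minus strand, 74056847 to 74084453) is the methylmalonate semialdehyde dehydrogenase of valine and pyrimidine breakdown. It had 1.75, 1.31 and 1.19 FPKM in NC and 2.86, 3.35 and 2.60 FPKM in LINC00862, without overlap. By edgeR ALDH6A1 had a log2 fold change of 1.23, with an SE of 0.17 and an adjusted p = 0.00024. BBOF1 overlaps it on the opposite strand, with 109 to 152 counts in NC and 199 to 251 in LINC00862, against 531 to 778 and 1165 to 1481 counts for ALDH6A1.

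ALDH1B1 (ENSG00000137124; chromosome 9, plus strand, 38392702 to 38398661) is a mitochondrial relative of ALDH2 that also accepts acetaldehyde. It had 23.7, 18.7 and 22.1 FPKM in NC and 17.6, 18.3 and 14.4 FPKM in LINC00862. The FPKM values did not overlap, yet after TMM scaling of the counts edgeR put the log2 difference at -0.19 with an SE of 0.14 (adjusted p = 0.267). Under upper quartile scaling it was 0.026, so its direction rests on the scaling.

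ALDH1L1 (ENSG00000144908; chromosome 3, minus strand, 126103562 to 126197941) is the cytosolic enzyme that oxidises formyltetrahydrofolate and so takes formyl groups out of the folate pool. It had 57, 57 and 92 counts in NC and 453, 334 and 274 counts in LINC00862, without overlap. Its level was 0.0727 ± 0.0210 FPKM (SD, n = 3) in NC and 0.363 ± 0.0661 FPKM (SD, n = 3) in LINC00862, low in both. This made a log2 fold change of 2.43 with an SE of 0.32 (adjusted p = 0.000163, edgeR). Its mitochondrial counterpart ALDH1L2, which is not among the 10 genes, went the same way and further, from 0.682, 0.379 and 0.321 FPKM in NC to 12.8, 13.9 and 12.1 FPKM in LINC00862, with a log2 fold change of 5.00 (adjusted p = 5.58e-07, edgeR). The antisense gene ALDH1L1-AS2 had 0 counts in 5 of the libraries and 9 counts in LINC00862 library 3.

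The enzymes of the ALDH3 group, which act on fatty and aromatic aldehydes, did not move together. ALDH3A2 (ENSG00000072210; chromosome 17, plus strand, 19648136 to 19685760), the fatty aldehyde dehydrogenase that is mutated in Sjögren-Larsson syndrome, rose. It had 3.19, 2.89 and 2.73 FPKM in NC and 8.51, 9.59 and 7.64 FPKM in LINC00862. The groups were well apart, and edgeR put the log2 difference at 1.72 with an SE of 0.13 (adjusted p = 5.08e-06).

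ALDH3B1 (ENSG00000006534; chromosome 11, plus strand, 68008578 to 68029276), which oxidises aldehydes from lipid peroxidation, rose least among the called genes. It had 5.74, 5.34 and 5.75 FPKM in NC and 9.08, 9.36 and 6.53 FPKM in LINC00862, with LINC00862 library 3 nearest to NC. On the log2 scale ALDH3B1 differed by 0.73 with an SE of 0.15 (adjusted p = 0.00221, edgeR). Its close relative ALDH3B2 had 0 counts in each NC library and 36, 25 and 15 counts in LINC00862, at least 8.79-fold higher when each NC library is set at the floor of 3 counts. Reads shared by ALDH3B1 and ALDH3B2 may have been split between them, and how such reads were counted is not stated.

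ALDH3A1 (ENSG00000108602; chromosome 17, minus strand, 19737984 to 19748943), an enzyme of aromatic and medium-chain aldehydes that is abundant in the cornea, fell. It had 171, 180 and 254 counts in NC and 50, 67 and 46 counts in LINC00862. Each LINC00862 library was below each NC library, and edgeR put the log2 difference at -1.80 with an SE of 0.34 (adjusted p = 0.00145). ALDH3A1 and ALDH3A2 lie close to each other on chromosome 17, on opposite strands, and they differed in opposite directions.

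Of the 9 other ALDH genes, all 9 were tested and 7 passed, 4 higher and 3 lower. The higher genes were ALDH18A1, which makes the proline precursor pyrroline-carboxylate, ALDH5A1, the succinate semialdehyde dehydrogenase, ALDH1L2 and ALDH3B2. ALDH18A1 had a log2 fold change of 1.43 (adjusted p = 1.98e-05, edgeR) and ALDH5A1 one of 3.01 (adjusted p = 3.97e-06, edgeR). The lower genes were ALDH7A1, which acts in lysine breakdown, ALDH4A1, which acts in proline breakdown, and ALDH9A1, with log2 fold changes of -2.16, -1.34 and -0.32. The call of ALDH9A1 (adjusted p = 0.0466, edgeR) was lost in 10 of 15 alternatives, among them upper quartile scaling, at -0.11 (adjusted p = 0.464). ALDH16A1 had a log2 fold change of -0.37 (adjusted p = 0.115, edgeR), which passed in 4 of 15 alternatives, among them the fit without NC replicate 1 at -0.51 (adjusted p = 0.0163, edgeR). The other gene that did not pass was ALDH8A1, at 0.14 (adjusted p = 0.869, edgeR). The share called was 80% of the 10 genes and 77.8% of the other 9, beside 64.2% of all genes tested, and these shares were not tested against each other.

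**Figure D3:**
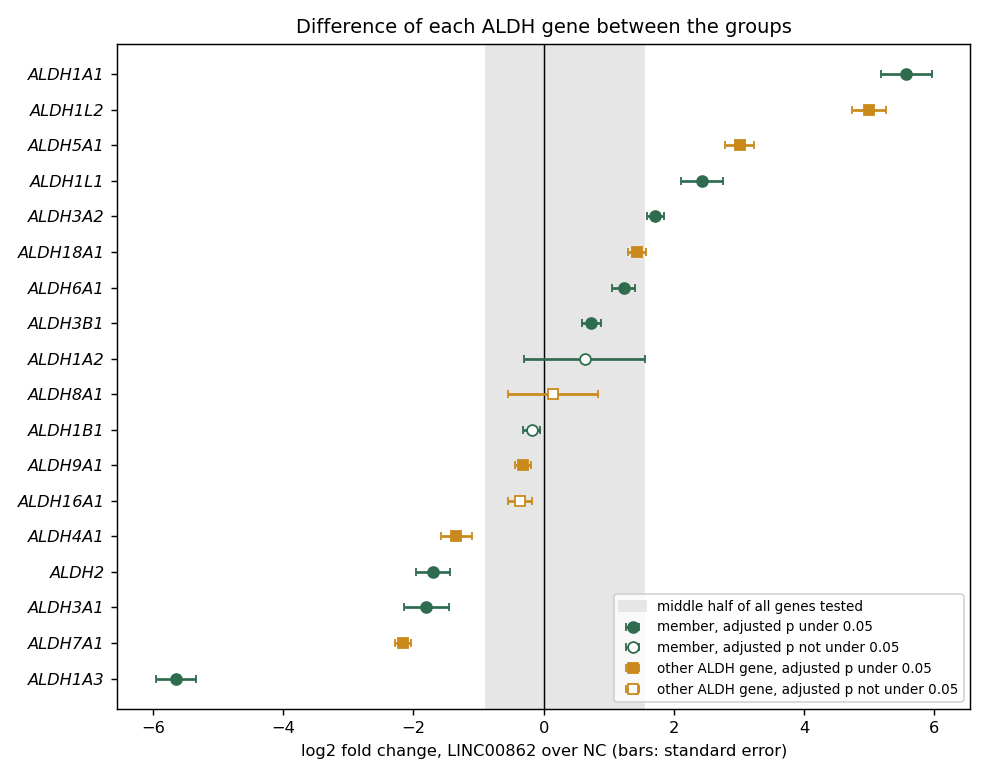
Log2 fold change of LINC00862 over NC with its standard error for 18 of the 19 ALDH genes, filled where the adjusted p was under 0.05. ALDH3B2 is left out because it had 0 counts in NC. The shaded band runs from the lower to the upper quartile of all genes tested, from -0.89 to 1.55, and ALDH1A1 at 5.57 and ALDH1A3 at -5.65 lie far outside it.

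Within each group the FPKM of the 10 genes covered a wide range, and ALDH1B1 was the highest in both, at 21.5 ± 2.57 FPKM (SD, n = 3) in NC and 16.8 ± 2.05 FPKM (SD, n = 3) in LINC00862. In NC it was followed by ALDH3B1 at 5.61, ALDH1A3 at 4.45 and ALDH3A2 at 2.94 FPKM, then by ALDH6A1, ALDH2, ALDH3A1, ALDH1A1, ALDH1L1 and ALDH1A2. The libraries of neighbours in this order overlapped for ALDH3B1 and ALDH1A3, for ALDH6A1 and ALDH2, for ALDH2 and ALDH3A1, and for ALDH1A1 and ALDH1L1. In LINC00862 the order after ALDH1B1 was ALDH3A2 at 8.58, ALDH3B1 at 8.32, ALDH1A1 at 6.85 and ALDH6A1 at 2.94 FPKM, then ALDH1L1, ALDH2, ALDH3A1, ALDH1A3 and ALDH1A2. There the neighbours ALDH3A2 and ALDH3B1, ALDH3B1 and ALDH1A1, ALDH1L1 and ALDH2, ALDH2 and ALDH3A1, and ALDH1A3 and ALDH1A2 overlapped. The summed FPKM of the 10 genes was 34.4 to 41.7 in NC and 38.6 to 48.7 in LINC00862, which overlap.

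As a share of the summed FPKM of all 19 ALDH genes, ALDH1B1 made up 20.8% ± 1.09 (SD, n = 3) in NC and 13.4% ± 0.250 in LINC00862, where ALDH18A1 was highest at 32.6% ± 0.347. ALDH1A1 went from 0.152% to 5.50%, ALDH3A2 from 2.85% to 6.85%, and ALDH1A3 from 4.31% to 0.0625%. The order depends on the length behind the FPKM. In 95.1% of the gene and library pairs from 3844 genes with unchanged coordinates, that length was within 5% of the union of all exons in GENCODE 29, and retained introns and rare exons count in it. For ALDH3A2 the length implied by the files was 15337 nucleotides, against 3928 for its longest coding transcript and 6457 for its GENCODE 29 union, so for this gene the length was not that union, and for ALDH1L1 it was 13824 against 3277. For ALDH1B1, with 3113 against 3066, it made little difference. When counts were divided by the longest coding transcript in place of the deposited length, ALDH3A2 held 17.9% in LINC00862 and ALDH1B1 held 9.08%, which turns their order. ALDH3B1, at 10.5%, was then also above ALDH1B1 in LINC00862. In NC, ALDH1B1 then held 13.3% and ALDH7A1 held 24.7%, against 20.8% and 10.9% by FPKM. The differences of a gene between the groups are not touched by its length.

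**Figure D4:**
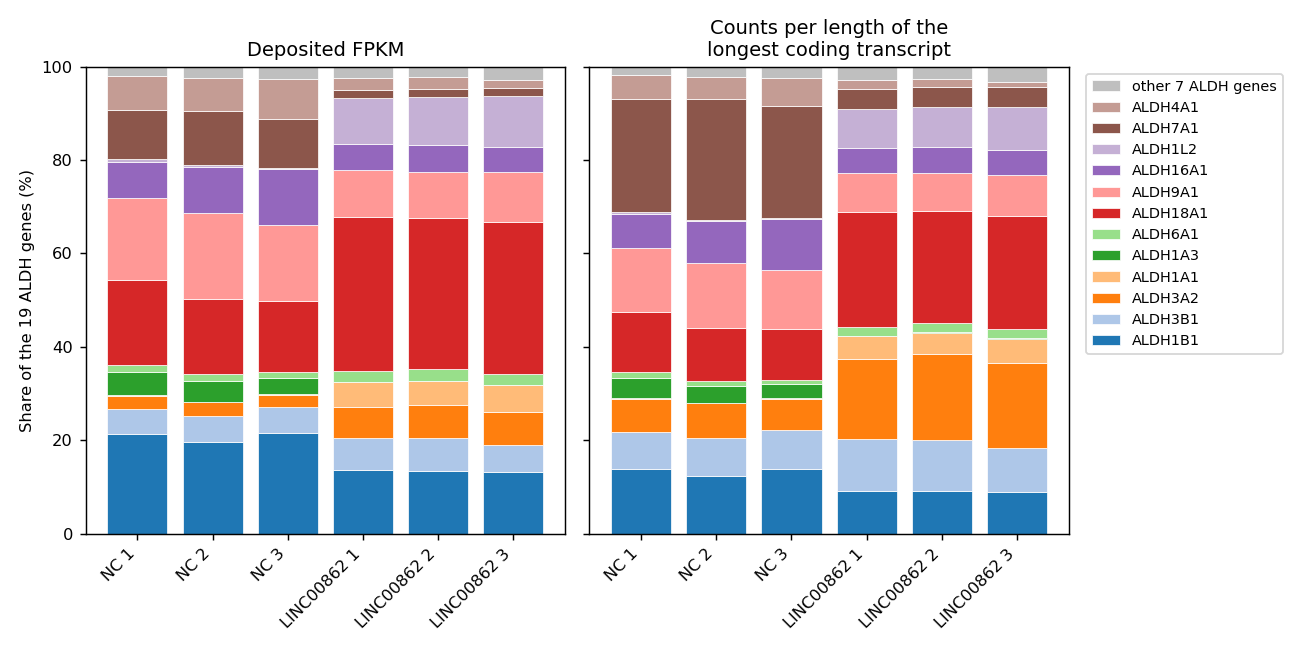
Share of each ALDH gene in the family's total for the 6 libraries, from the deposited FPKM (left) and from counts per length of the longest coding transcript (right). ALDH18A1, ALDH1L2, ALDH3A2 and ALDH1A1 take larger shares in LINC00862 in both panels, and ALDH1B1, ALDH7A1 and ALDH1A3 take smaller ones.

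The routes around these enzymes were described with 4 gene lists. In the retinoid list, the route that ALDH1A1 and ALDH1A3 serve, 19 of 21 genes were tested, of which 12 were higher, 4 were lower and 3 did not pass, with a median log2 fold change of 3.56. The 4 most abundant were FABP5, a carrier of fatty acids and retinoic acid, RDH11, RXRB and DHRS3, a retinaldehyde reductase that feeds retinoids back to retinol. FABP5 rose from 1.98 ± 0.618 to 53.3 ± 1.36 FPKM and DHRS3 from 0.655 ± 0.0726 to 17.9 ± 1.39 FPKM (SD, n = 3), with adjusted p = 1.07e-06 and adjusted p = 1.03e-07 (edgeR). RXRB had a log2 fold change of 0.48 and RDH11 one of -0.24, and the latter did not pass (adjusted p = 0.15, edgeR). STRA6 and CRABP2 did not pass either. The 4 lower genes were TGM2 and the receptors RARA, RARG and RXRA, with log2 fold changes of -1.15, -1.07, -1.97 and -1.37. The receptors did not move together, as RARB, RXRG and RXRB were higher. RXRB overlapped between the groups, with 11.5 FPKM in LINC00862 library 3 against 11.7 to 12.6 FPKM in NC. Its adjusted p was 0.0255 (edgeR) and its exact two-sided permutation p was 0.4. RARB had a log2 fold change of 1.48 (adjusted p = 0.0173, edgeR). That of RXRG was 5.56 (adjusted p = 0.000922, edgeR), from 3, 0 and 0 counts in NC. CRABP1 and CYP26A1 had 0 counts in each NC library, and CYP26A1, which degrades retinoic acid, was at least 16.7-fold higher in LINC00862. DHRS9, RBP4, LRAT and RXRG, also among the higher genes, had at most 5 counts in any NC library. All of these genes near 0 in NC stayed low in LINC00862, at means between 0.124 and 0.558 FPKM. The median log2 fold change of the list rests in part on them.

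In the alcohol list, which holds the enzymes before and after ALDH2, 5 of 11 genes were tested, 3 higher and 2 lower. ADH5, the formaldehyde-handling alcohol dehydrogenase, fell from 34.2 ± 1.53 to 5.54 ± 0.563 FPKM (SD, n = 3; adjusted p = 1.46e-06, edgeR), and ACSS2, the cytosolic acetyl-CoA synthetase, fell from 18.9 to 11.9 FPKM. Catalase (CAT) rose from 8.16 to 15.6 FPKM, and ACSS1, the mitochondrial acetyl-CoA synthetase, rose from 0.474 to 8.39 FPKM. ADH4 was the third higher gene, with 0 counts in NC and 125, 113 and 59 counts in LINC00862. The liver enzymes ADH1A, ADH1B, ADH6 and CYP2E1 had at most 13 counts in any library and were not tested. Under upper quartile scaling 1 gene of this list was lower in place of 2.

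In the folate list, the route of ALDH1L1, 16 of 17 genes were tested, 5 higher and 9 lower, with a median log2 fold change of -0.44. Under upper quartile scaling 6 were higher and 6 were lower, so the excess of lower genes rests on the scaling. The most abundant genes did not move together. Members of the mitochondrial branch went both ways. SHMT2 and MTHFD2 rose from 38.9 to 84.6 FPKM and from 30.6 to 86.2 FPKM, with log2 fold changes of 1.28 and 1.67, while MTHFD1L fell from 11.2 to 3.37 FPKM and the mitochondrial folate carrier SLC25A32 from 9.84 to 6.18 FPKM, with log2 fold changes of -1.57 and -0.49. TYMS, the thymidylate synthase, fell from 54.5 to 5.28 FPKM, with a log2 fold change of -3.20. MTHFD2L, MTHFS and FTCD were the other higher genes, and GART was among those that did not pass.

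In the list of valine and branched-chain breakdown, the route of ALDH6A1, all 15 genes were tested, 8 higher and 2 lower, with a median log2 fold change of 0.69. DLD and BCKDHA, subunits of the branched-chain ketoacid dehydrogenase complex, were both higher. DLD rose from 19.3 to 33.8 FPKM. BCKDHA had 15.7, 15.6 and 19.97 FPKM in NC and 33.8, 36.6 and 17.2 FPKM in LINC00862, so that its groups overlapped through LINC00862 library 3 (adjusted p = 0.0103, edgeR, and exact two-sided permutation p = 0.2). The lower genes were ECHS1, from 111.5 to 24.7 FPKM, with a log2 fold change of -2.02 (adjusted p = 3.82e-05, edgeR), and BCAT1. HIBADH, the enzyme directly before ALDH6A1, had 21.0 FPKM in NC and 18.5 FPKM in LINC00862, with a log2 fold change of -0.01 and an SE of 0.13 (adjusted p = 0.941, edgeR). BCAT2, HIBCH, ABAT and PCCB did not pass either. The shares of genes called in the 4 lists were 84.2%, 100%, 87.5% and 66.7%, beside 64.2% of all genes tested, and these shares were not tested against each other. They include CRABP1, CYP26A1 and ADH4, which had 0 counts in each NC library and entered the test only through their counts in LINC00862.

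**Figure D5:**
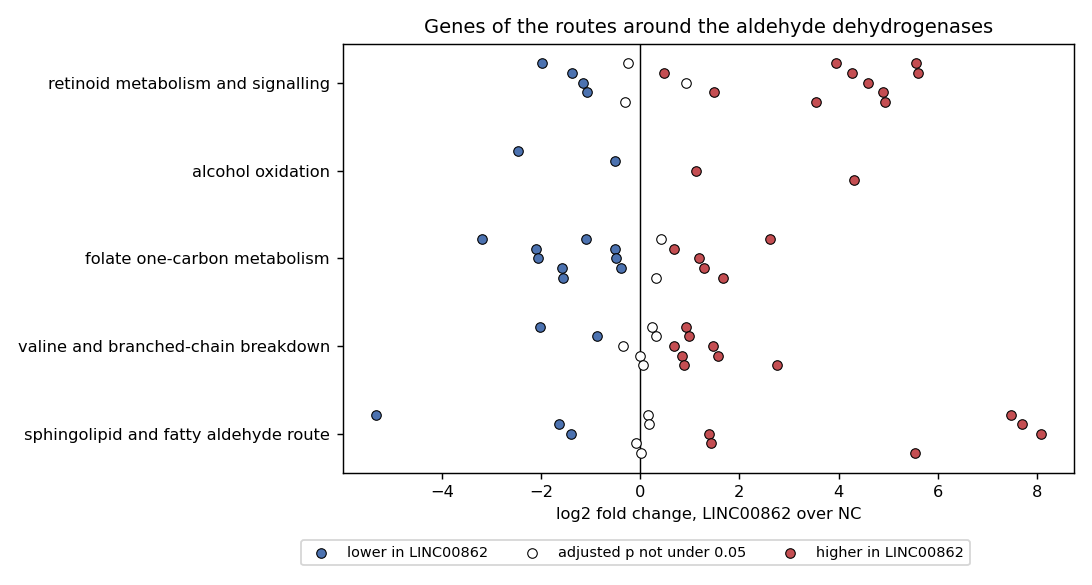
Log2 fold change of LINC00862 over NC for each tested gene of 5 lists, red where higher, blue where lower and white where the adjusted p was not under 0.05. Genes with 0 counts in a group are left out. The retinoid list reaches from -1.97 to 5.60, and the folate list holds its lowest value at -3.20.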

How the data were processed

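RNA sequencing of 3 NC and 3 LINC00862 libraries was analysed. The authors deposited raw counts per gene and FPKM, one column of each per library. The submitters' processing notes list cutadapt 1.9, HISAT2 2.0.4, UMI-tools, StringTie, DESeq2, edgeR and hg38 without saying which step each served. The authors describe second cDNA strands labelled with dUTP and treated with UDG enzyme, and cite a strand-specific method for this. Whether molecular identifiers were collapsed or strand was used in counting is not given in the sources used here.

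Counts were tested with edgeR 4.0.16 in R 4.3.3 (filterByExpr, TMM, quasi-likelihood test, Benjamini-Hochberg adjustment, threshold 0.05), after the script was tested on simulated data. Standard errors were derived from the test statistic. FPKM was used for levels and shares, with an exact two-sided permutation test for single genes. Folds against a group at 0 counts used a floor of 3 counts per library, which covers counting error only. Coding transcripts came from GENCODE 29 and promoters from RefSeq (GRCh38.p14), which held 8 of the 10 genes and not ALDH2 and ALDH3A1. Alternatives were DESeq2 1.42.0, limma 3.58.1 on log2(FPKM + 1) and log2(FPKM + 0.1), other scalings, filters and thresholds, a replicate block and leaving out each library. Named genes were the ALDH family, LINC00862, the 4 most abundant genes of each list and those behind counts of 5 or fewer. A few genes that this rule names are not reported here. The ALDH genes and lists were chosen with earlier results of these data known, and the overlapping genes, the promoters, the motifs searched and further genes in the text, such as MTHFD1L and SLC25A32, after their values were seen. The proteomics and other assays of the study were not analysed here.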

Additional observations from a re-analysis of the deposited data

How the results depend on the processing

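The 8 called genes kept their direction in all 15 alternatives. The false discovery rate of 0.01 and the test beyond 2-fold keep the log2 fold changes of the main fit, so direction could not differ in them. When edgeR tested for a change beyond 2-fold, ALDH3B1 (0.73, adjusted p = 1) and ALDH6A1 (1.23, adjusted p = 0.0816) lost their calls, so that 3 genes were higher in place of 5, because this test asks for more, and 8010 of all genes were called in place of 13321. ALDH1B1 reversed to 0.026 under upper quartile scaling, and with single libraries removed ALDH1A2 lay between -0.59 (without LINC00862 replicate 2, reversed) and 1.68 (without NC replicate 2), neither gene being called. ALDH8A1, never called, reversed with library size only (-0.050), the replicate block (-0.060), limma with a pseudocount of 1 (-0.0053) or 0.1 (-0.056), and lay between -0.57 and 0.57 with single libraries removed (reversed without NC replicate 3 or LINC00862 replicate 3). The median log2 fold change of all genes was 0.11 under TMM, 0.32 under upper quartile scaling, and -0.05 when scaled by library size alone. ALDH1A1 and ALDH1A3 fell in size to 2.76 and -2.32 in the limma fit with pseudocount 1. Same-numbered libraries did not deviate together (correlations of deviations -0.049, -0.025 and -0.0074), and with a replicate block 8 of the 10 genes were called, as without it, and 12098 of all genes. The share alternative with the longest coding transcript was chosen after the data were seen. ALDH1A2, with 4 to 41 counts per library, had the fewest counts in total of the 10 genes.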

Other observations

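Fatty aldehydes also reach the cell through sphingolipid and ether lipid breakdown, and aldo-keto reductases and aldehyde oxidase compete with ALDH enzymes for aldehydes. In this list of 13 genes, all were tested, 6 were higher and 3 were lower, with a median log2 fold change of 0.18. The share called, 69.2%, lies near the 64.2% of all genes tested. The aldo-keto reductases AKR1C2, AKR1B10 and AKR1C3 rose from 0.213, 0.195 and 0.532 FPKM in NC to 51.8, 32.1 and 22.6 FPKM in LINC00862, with log2 fold changes of 8.09, 7.48 and 5.55 (edgeR, adjusted p = 2.63e-08, adjusted p = 5.89e-07 and adjusted p = 9.83e-08). AKR1C genes are near-identical copies, so reads may have been split between them. The 3 lower genes were AOX1, the aldehyde oxidase, from 7.28 to 0.157 FPKM, SPHK1, a sphingosine kinase, from 7.97 to 2.31 FPKM, and HACL1, which releases aldehydes from branched fatty acids, from 7.80 to 2.64 FPKM. FAR1, which makes fatty alcohols, had 11.7 FPKM in NC and 9.66 FPKM in LINC00862 and did not pass, nor did SPHK2, SGPL1 and SGPP1.

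The pseudogene ALDH7A1P1, a copy of ALDH7A1, had 28, 34 and 16 counts in NC and 10, 23 and 5 counts in LINC00862. Its groups overlapped, and its log2 fold change of -0.94 did not pass (adjusted p = 0.238, edgeR). ALDH7A1 itself had 13865, 12933 and 12828 counts in NC and 3170, 2813 and 2352 in LINC00862.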
